A study of Mus musculus with 6 samples.

Results

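Triglyceride synthesis enzymes are described here in inguinal white fat of cold-exposed mice with and without Celf1 in adipocytes. The 10 genes were taken by name from the count table, and all 10 were present among its 16627 genes: Gpam, Gpat3, Gpat4, Agpat2, Agpat3, Lpin1, Lpin2, Dgat1, Dgat2 and Pnpla3. The study is about the part played by Celf1 in the beiging of this fat depot. Celf1 binds RNA and is known for its roles in splicing and in mRNA decay. The knockout group (Celf1 AKO) came from mice lacking Celf1 in adipocytes, and the Flox control group from Celf1 fl/fl littermates without the deletion. All mice of both groups were held at 4 °C for 6 hours, so the data hold no animal kept warm and no response to cold as such. Each group had 3 libraries. The labels do not name the Cre driver, the sex or the age, nor do they say in words that each library is a separate mouse, so the spread behind each p-value is that among libraries, which may be technical.

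Adipocytes store fatty acids as triglyceride, built on glycerol 3-phosphate. Glycerol 3-phosphate acyltransferases (GPAT) add the first fatty acid and acylglycerol phosphate acyltransferases (AGPAT) the next, giving phosphatidic acid. Lipins remove the phosphate to yield diacylglycerol, and diacylglycerol acyltransferases (DGAT) add the last fatty acid. In fat kept in the cold, lipolysis and resynthesis of triglyceride run at the same time, and the resynthesis draws on glycerol 3-phosphate from glucose, from glyceroneogenesis or from glycerol.

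The libraries held 54835348 to 64979443 counts, so that 1 CPM (a count scaled to library size with its TMM factor) stood for 54.9 to 67.8 counts. Values given in threes are in the order of replicates 1 to 3. Celf1 itself was at 52.5, 49.8 and 63.0 CPM in the knockout against 126, 114 and 144 CPM in the control libraries, without overlap (log2 fold change -1.21, SE 0.14; adjusted p = 0.122 by edgeR's quasi-likelihood test). Of 19 alternatives 4 called it, DESeq2 (adjusted p = 2.09e-09), edgeR without Celf1 AKO replicate 3 (0.0174), limma-voom with quality weights (0.0314) and edgeR with a replicate block (0.0476), and the highest adjusted p was 0.697. Celf1 AKO replicate 3 stood apart from its group: over all genes, its log2 CPM had a correlation of 0.983 to 0.986 with the controls, higher than the 0.978 and 0.976 it had with knockout replicates 1 and 2. It also held 1039 CPM of Acta1, a skeletal muscle actin (1 of 4 muscle markers in the table), against 23.1 to 75.2 CPM in the other 5 libraries. The 5 adipocyte markers (Adipoq, Plin1, Fabp4, Cidec, Lep) summed to 21301 to 26973 CPM in Celf1 AKO and 25357 to 27945 CPM in Flox control. Fabp4, at 13252 to 17554 CPM, made up most of each sum. Of the 5 log2 fold changes 1 was positive, that of Adipoq (0.12; edgeR adjusted p = 0.701). The other 4 were negative, down to -1.71 for Lep (0.324). All 4 beige markers (Ucp1, Cidea, Cox7a1, Elovl3) were lower in every knockout library than in any control, as 9.51% of all genes were. Their sums were 73.7 to 186 against 645 to 714 CPM, and Ucp1 (461 to 567 CPM) made up most of the control sums. By edgeR none of the 4 was called (adjusted p = 0.246 to 0.299), and DESeq2 called 2, where it called 3.08% of all genes. The sums of 4 endothelial markers were 759 to 893 CPM in Celf1 AKO against 402 to 616 CPM, of 4 Schwann cell markers 146 to 274 against 73.4 to 97.1 CPM, of 4 neutrophil markers 14.3 to 86.0 against 2.40 to 12.2 CPM, of 4 macrophage markers 158 to 518 against 274 to 394 CPM, and of 4 fibroblast markers 2037 to 3208 against 2348 to 2938 CPM. Epithelial markers (3 of 6 in the table) summed to 3.13 to 11.96 against 1.01 to 3.25 CPM, and the lymphocyte marker Cd3e (1 of 4 in the table) was at 1.13 to 1.57 against 0.47 to 0.89 CPM. The neutrophil gene Ngp was at 0 in 2 control libraries and the epithelial gene Epcam in 1. The part of these other cells in the results below was not tested, and in whole tissue fewer adipocytes and less RNA per adipocyte cannot be told apart.

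By edgeR's quasi-likelihood test with Benjamini-Hochberg adjustment over all 16366 tested genes, 0 of the 10 enzymes passed an adjusted p of 0.05, where 2 genes in all (0.0122%) did. At an unadjusted p under 0.05 the count was 2 of 10, Agpat2 lower and Lpin1 higher, against 12.9% of all genes tested. DESeq2 called 1 of the 10, Agpat2, and 3.08% of all genes it tested (0.96% lower). In CPM, 1 of the 10, again Agpat2, lay lower in all 3 knockout libraries than in any control (9.51% of all genes did so), and 0 of 10 lay higher in all 3 (7.81%). Of the 10 log2 fold changes, 8 were negative (52.5% of all genes were), with a median of -0.18 against -0.02 over all genes.

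**Figure D1:**
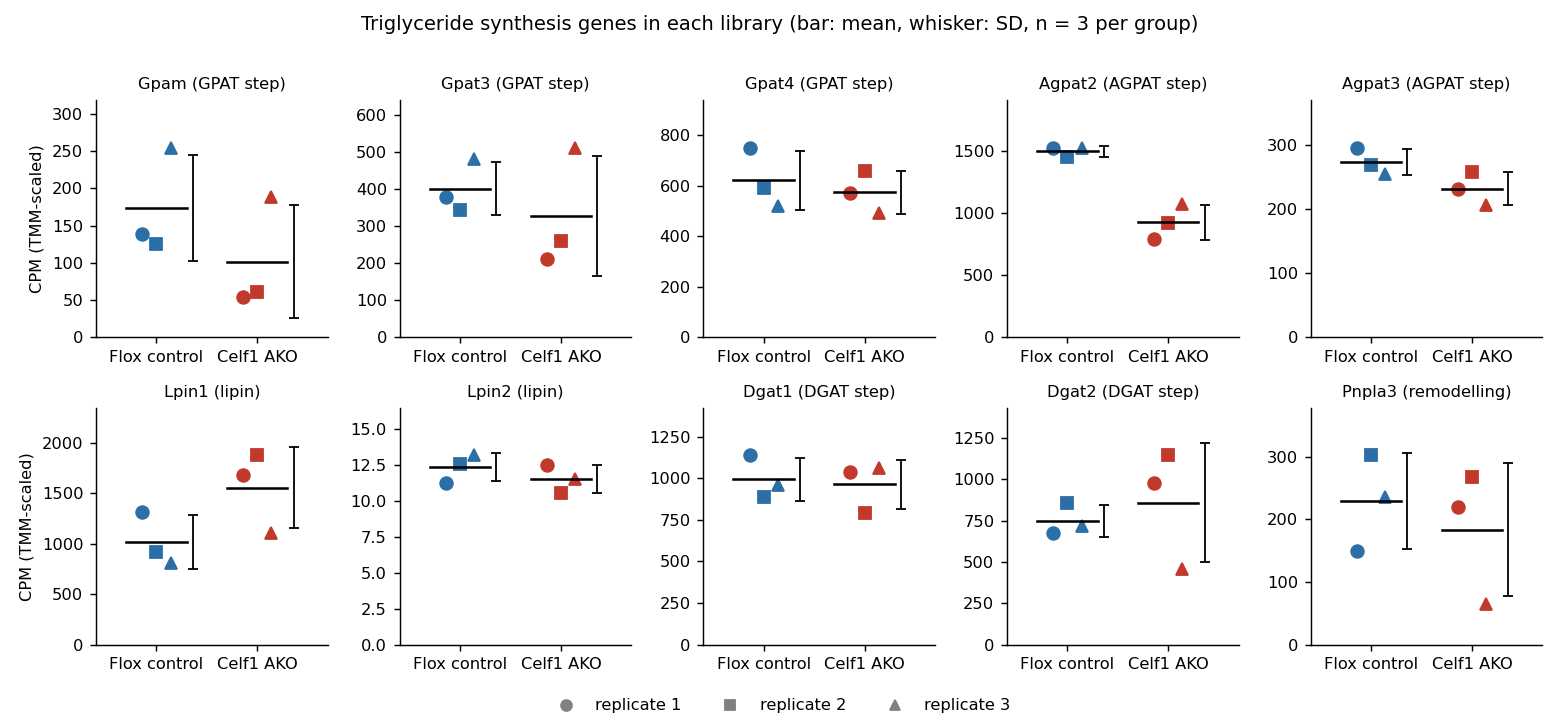
TMM-scaled CPM of each triglyceride synthesis gene by group, each panel from 0, with a symbol for each replicate, a bar for the mean and a whisker for the SD (n = 3 per group). Agpat2 separates the groups, while Celf1 AKO replicate 3 (triangle) lies far from replicates 1 and 2 for Gpam, Gpat3, Dgat2 and Pnpla3.

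Per unit of transcript length, Agpat2 had the highest mean of the 10 in both groups and Lpin2 the lowest. In deposited FPKM, the controls averaged 1007 ± 51.5 for Agpat2, 525 ± 37.1 for Dgat1, 334 ± 58.6 for Dgat2, 179 ± 35.7 for Lpin1, 157 ± 21.0 for Gpat4 and 132 ± 26.8 for Gpat3 (SD, n = 3). Below these came Pnpla3 at 50.1 ± 19.0, Agpat3 at 45.8 ± 1.56, Gpam at 45.5 ± 20.0 and Lpin2 at 2.20 ± 0.29 FPKM. Agpat2 ranked above 99.8% of all genes in the table and Lpin2 above 40.1%. Among neighbours in this order, the control ranges of Lpin1 and Gpat4, of Gpat4 and Gpat3, of Pnpla3 and Agpat3 and of Agpat3 and Gpam overlapped, whereas those of Agpat2, Dgat1, Dgat2, Gpat3 and Gpam did not overlap with the next gene below. The mean FPKM of the knockout libraries gave the same order, though Pnpla3 (38.7) and Agpat3 (38.5) were nearly level there. Single libraries of both groups departed from this order. In Celf1 AKO replicate 1, Dgat1 (550 FPKM) was above Agpat2 (530 FPKM). In Flox control replicate 3, Gpat3 (163 FPKM) was above Lpin1 (149 FPKM).

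Of the 3 GPAT enzymes, Gpam and Gpat3 were at lower counts in 2 of the 3 knockout libraries and Gpat4 was not. Gpam, the GPAT of the outer mitochondrial membrane (ENSMUSG00000024978; GRCm38 chromosome 19, 55067268 to 55127238, minus strand), was at 54.4, 60.6 and 189 CPM in the knockout against 139, 125 and 255 CPM in Flox control. Knockout replicates 1 and 2 were thus below every control, and replicate 3 was above 2 of the 3 controls. The log2 fold change was -0.77 (SE 0.51; edgeR adjusted p = 0.553). It was -1.59 (SE 0.33; adjusted p = 0.0557) without Celf1 AKO replicate 3. Leaving out knockout replicate 1 or 2 instead gave -0.43 or -0.51, and leaving out control replicate 3 gave -0.39.

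Gpat3, a GPAT of the endoplasmic reticulum (ENSMUSG00000029314; chromosome 5, 100845713 to 100899102, plus strand), showed the same split of the knockout libraries. It was at 211, 258 and 512 CPM in Celf1 AKO and at 378, 344 and 482 CPM in Flox control. Knockout replicates 1 and 2 lay below all controls and replicate 3 above all of them, so the log2 fold change of -0.30 (SE 0.33; edgeR adjusted p = 0.727) became -0.78 (SE 0.19; 0.0695) without Celf1 AKO replicate 3. It was -0.02 without Celf1 AKO replicate 1 and -0.15 without Celf1 AKO replicate 2 or Flox control replicate 3. The antisense gene 4930458D05Rik overlaps Gpat3 and held 1823 counts over all libraries. These were few beside the counts of Gpat3, at 211 to 512 CPM with 54.9 to 67.8 counts per CPM. Since the counting's use of strand is not given in the sources used here, reads of the 2 genes from the stretch they share cannot be told apart.

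Celf1 is known to bind GU-rich elements in 3′ untranslated regions and to speed decay of the mRNAs that hold them, which is why the longest annotated 3′ untranslated region of each of the 10 was searched, on the sense strand, for such an element, made of UGUU units. Gpat3 was the single one of the 10 that held it, at base 888 of 1274, shown here from the GENCODE M21 transcript with the element searched for in capitals and T for U:
Gpat3 3′ site: ttttgtttTGTTTGTTTGTtttgtaac
The element stood in 4.20% of the 13964 regions searched and in 2.87% of the 2233 whose length was close to that of Gpat3. Another GU-rich element, made of UG units, was searched for in the same regions. It was found in none of the 10 enzymes, while 8.19% of the 13964 regions held it. A match is a run of letters and says nothing of binding here.

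Gpat4, the other GPAT of the endoplasmic reticulum (ENSMUSG00000031545; chromosome 8, 23171265 to 23208346, minus strand), was at 570.3, 659 and 490.2 CPM in Celf1 AKO and at 751, 593 and 519.7 CPM in Flox control. The ranges overlapped over most of their length (log2 fold change -0.12, SE 0.18; edgeR adjusted p = 0.820), and without Flox control replicate 1 the sign turned (0.04). Without knockout replicates 1 to 3 in turn it was -0.08, -0.23 and -0.02, and without control replicate 3 it was -0.23. Its share of the summed FPKM of the 4 GPAT genes, among them the barely detected Gpat2, was 63.5%, 62.5% and 36.4% in the knockout and 54.3%, 50.9% and 37.0% in the control libraries. Gpam held 6.23%, 5.92% and 14.5% in Celf1 AKO and 10.4%, 11.0% and 18.7% in Flox control, so replicate 3 of either group had the highest share of Gpam and the lowest of Gpat4.

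**Figure D2:**
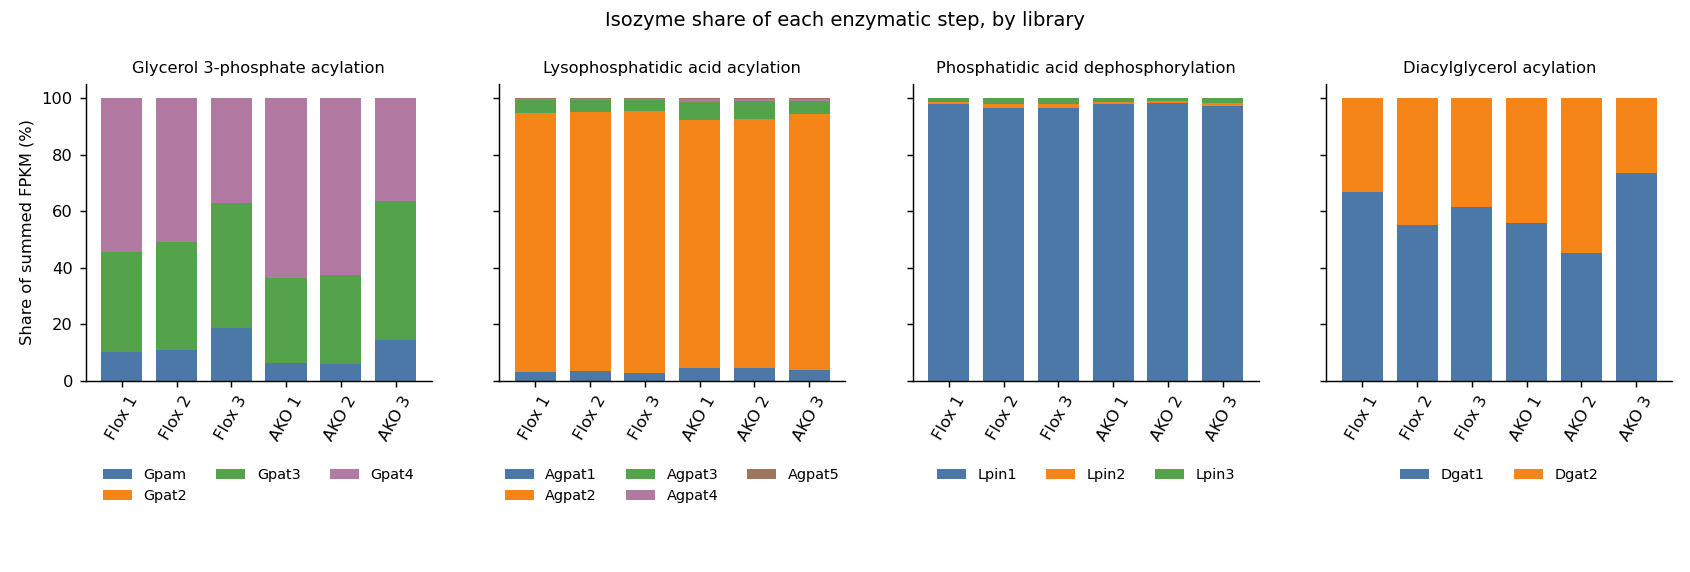
Share (%) of each isozyme in the summed FPKM of its enzymatic step, 1 stacked bar per library. Agpat2 and Lpin1 fill most of their steps in every library, while the GPAT and DGAT steps are split between isozymes in proportions that vary among libraries of the same group.

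Agpat2 was lower in all 3 knockout libraries. It encodes the main AGPAT of adipocytes, and its loss causes congenital generalized lipodystrophy (ENSMUSG00000026922; chromosome 2, 26593057 to 26604417, minus strand). It was at 788, 915 and 1071 CPM in Celf1 AKO and at 1520.4, 1446 and 1525 CPM in Flox control, so that even the highest knockout library was well below the lowest control. The means were 925 ± 142 and 1497 ± 44.4 CPM (SD, n = 3 each), 61.8% of the control level. At a log2 fold change of -0.69 (SE 0.15), its edgeR adjusted p of 0.227 did not pass. It passed with DESeq2 (adjusted p = 0.00259) and, by edgeR, without Celf1 AKO replicate 3 (log2 fold change -0.82, adjusted p = 0.0369; 3.19% of all genes were called then, 1.76% lower). Over all 19 alternatives the adjusted p ran from 0.00259 to 0.782 and the log2 fold change from -0.82 to -0.56. Agpat2 overlaps the endothelial gene Egfl7 on the opposite strand, whose 16447 counts over all libraries were few beside those of Agpat2.

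Because Agpat2 separated the groups, the 250 bases before its start are shown, from the RefSeq promoter table (GRCm38.p6, chr2:26604418-26604667, minus strand), with GC boxes (GGGCGG) in capitals:
Agpat2 promoter: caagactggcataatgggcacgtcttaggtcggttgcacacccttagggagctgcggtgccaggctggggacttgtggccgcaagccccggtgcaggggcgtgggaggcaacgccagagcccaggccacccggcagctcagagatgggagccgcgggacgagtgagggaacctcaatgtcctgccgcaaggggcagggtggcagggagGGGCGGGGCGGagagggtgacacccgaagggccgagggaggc
Both strands were searched for 6 motifs, the GC box, the CCAAT box, the TATA box (TATAAA), the E-box (CACGTG), the cAMP response element (TGACGTCA) and the direct repeat bound by PPAR with RXR (AGGTCA units with 1 base of any kind between them). The window held the GC box at 2 places that share a base and none of the other 5 motifs. Of 32851 promoters of this length, 32.7% held the GC box, 33.8% the CCAAT box, 12.4% the TATA box, 6.02% the E-box, 1.55% the cAMP response element and 0.0335% the direct repeat.

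Agpat3, an AGPAT found in many tissues (ENSMUSG00000001211; chromosome 10, 78269178 to 78352489, minus strand), was at 232, 258 and 207 CPM in Celf1 AKO and at 297, 269.9 and 255 CPM in Flox control. The groups overlapped by 1 library, and the log2 fold change of -0.24 (SE 0.13) had an edgeR adjusted p of 0.475. Agpat2 made up 87.7%, 88.3% and 90.9% of the summed FPKM of Agpat1 to Agpat5 in Celf1 AKO and 91.6%, 91.5% and 92.6% in Flox control, which did not overlap. That sum was 604, 657 and 823 FPKM in the knockout and 1041, 1105 and 1141 FPKM in the controls, a difference that Agpat2 carried almost alone.

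Lpin1 had the largest positive difference of the 10. It encodes lipin 1, the main phosphatidic acid phosphatase of adipocytes, which can also act in the nucleus as a transcriptional coactivator (ENSMUSG00000020593; chromosome 12, 16535669 to 16610966, minus strand). It was at 1686, 1879.6 and 1104 CPM in Celf1 AKO and at 1316, 916 and 812 CPM in Flox control. Knockout replicates 1 and 2 exceeded every control, and replicate 3 lay between the highest and the other 2 controls. The means were 1556 ± 404 and 1015 ± 266 CPM, a log2 fold change of 0.62 (SE 0.25; edgeR adjusted p = 0.373), and 0.81 (SE 0.22; 0.0878) without Celf1 AKO replicate 3. Leaving out control replicate 1 instead gave 0.85. It was 0.46 without knockout replicate 2 and 0.48 without control replicate 3.

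Lpin1 and Agpat2 were the 2 enzymes with an unadjusted p under 0.05, so the 250 bases before the Lpin1 start are given for comparison (GRCm38.p6, chr12:16610967-16611216, minus strand). None of the 6 motifs was found in this window, so no base is in capitals:
Lpin1 promoter: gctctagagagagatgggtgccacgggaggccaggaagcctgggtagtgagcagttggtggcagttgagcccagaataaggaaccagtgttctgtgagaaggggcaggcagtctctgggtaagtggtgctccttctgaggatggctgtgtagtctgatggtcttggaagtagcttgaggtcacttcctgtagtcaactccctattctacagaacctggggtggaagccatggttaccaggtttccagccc

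Lpin2, a lipin prominent in liver (ENSMUSG00000024052; chromosome 17, 71182560 to 71249817, plus strand), was scarce. It was at 12.5, 10.5 and 11.5 CPM in Celf1 AKO and at 11.3, 12.6 and 13.2 CPM in Flox control, and the groups overlapped (log2 fold change -0.10, SE 0.15; edgeR adjusted p = 0.811). Leaving out knockout replicate 2 gave -0.04, and leaving out control replicate 1 or 3 gave -0.16 or -0.05. Lpin1 held 97.3% to 98.5% of the summed FPKM of the 3 lipins in Celf1 AKO and 96.5% to 98.0% in Flox control.

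The 2 DGAT enzymes, which are unrelated in sequence and each complete triglyceride, did not separate the groups. Dgat1 (ENSMUSG00000022555; chromosome 15, 76502015 to 76511953, minus strand), known for re-esterifying fatty acids released by lipolysis, was at 1036, 794 and 1059 CPM in Celf1 AKO and at 1138, 886 and 956 CPM in Flox control. Its log2 fold change of -0.04 (SE 0.17; edgeR adjusted p = 0.936) was the smallest in size of the 10, and its sign turned when knockout replicate 2 (0.08) or control replicate 1 (0.06) was left out. It was -0.12 without knockout replicate 3 or control replicate 2.

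Dgat2 (ENSMUSG00000030747; chromosome 7, 99153658 to 99182719, minus strand), linked with newly made fatty acids, was at 974, 1145 and 454 CPM in Celf1 AKO and at 672, 855 and 718 CPM in Flox control. The knockout libraries held both the highest and the lowest values, with replicates 1 and 2 above all controls and replicate 3 below them. The log2 fold change was 0.20 (SE 0.31; edgeR adjusted p = 0.825). It was 0.50 (SE 0.16; 0.126) without Celf1 AKO replicate 3. Leaving out control replicate 2 gave 0.30, and leaving out knockout replicate 2 gave -0.07. The share of Dgat1 in the FPKM of both was 55.9%, 45.3% and 73.6% in Celf1 AKO and 66.9%, 55.3% and 61.4% in Flox control, so Celf1 AKO replicate 2 was the single library with more Dgat2 than Dgat1.

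Pnpla3, a lipid droplet protein that remodels triglyceride and phospholipid and follows feeding and insulin (ENSMUSG00000041653; chromosome 15, 84167837 to 84187236, plus strand), spanned the widest range of the 10 within the knockout group on the log2 scale. It was at 219, 267 and 63.9 CPM in Celf1 AKO and at 149, 302 and 235 CPM in Flox control. The value in Celf1 AKO replicate 3 was the lowest of all 6, and the other 2 lay within the control range. The log2 fold change of -0.32 (SE 0.49; edgeR adjusted p = 0.816) turned to 0.09 without that library. It was -0.69 when knockout replicate 2 was left out, and -0.55 or -0.07 when control replicate 1 or 2 was.

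**Figure D3:**
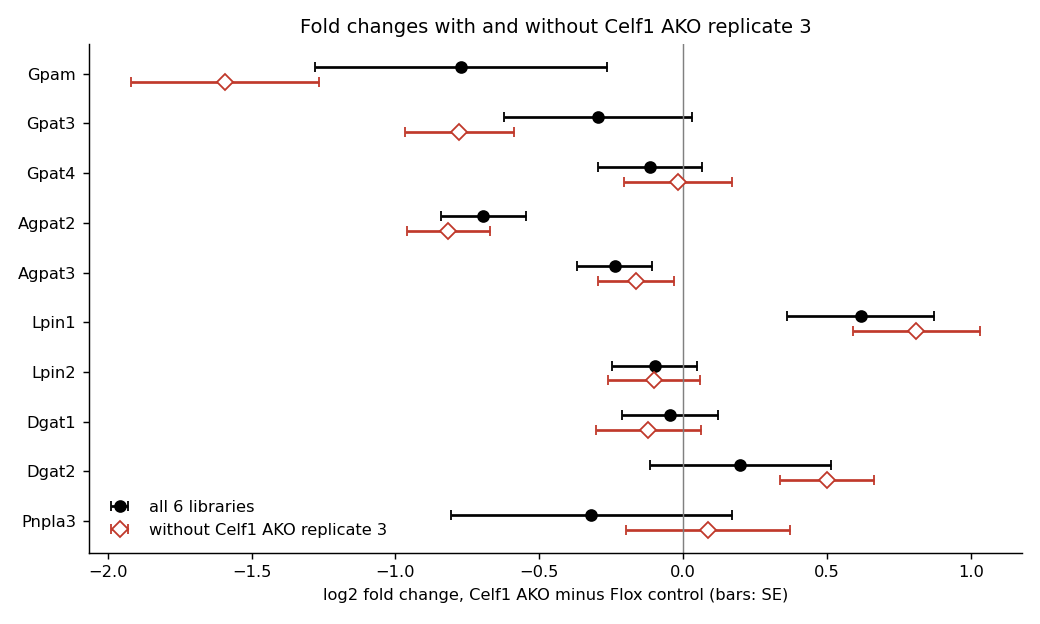
Log2 fold change of each gene (Celf1 AKO minus Flox control; bars are SE) from edgeR with all 6 libraries (filled) and without Celf1 AKO replicate 3 (open). Gpam, Gpat3 and Agpat2 move further below 0 and Lpin1 and Dgat2 further above it without that library, and Pnpla3 changes sign.

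Celf1 AKO replicate 3 was the lowest of the 6 libraries for 4 of the 10 enzymes (Agpat3, Gpat4, Dgat2, Pnpla3), where it was the lowest for 17.2% of all genes, and the highest for Gpat3. Relative to the control mean, its log2 CPM was 0.20 for Gpam, 0.37 for Gpat3, -0.71 for Dgat2 and -1.77 for Pnpla3. In Celf1 AKO replicates 1 and 2 the same quantity was -1.59 and -1.43 for Gpam, -0.91 and -0.62 for Gpat3, 0.39 and 0.62 for Dgat2, and 0.00 and 0.28 for Pnpla3. Agpat2 was below the control mean in all 3 (-0.92, -0.71 and -0.48), and Lpin1 above it (0.76, 0.92 and 0.15). Without this library 1 of the 10 was called by edgeR, Agpat2, against 3.19% of all genes called (1.76% lower). Of the 10, 7 were negative, with a median of -0.11 against -0.02 over all genes.

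The rest of the glycerolipid pathway was read from 43 companion genes in 5 lists, of which 40 were tested: Acsl6 and Fitm1 fell below the expression filter and Aqp3 was not analysed here. By edgeR 0 of 40 passed over all genes, and 4 of 40 (Gk, Plpp1, Selenoi, Ppargc1a) had an unadjusted p under 0.05 (12.9% over all genes). Without overlap between the groups, 5 (Gk, Selenoi, Pcyt1a, Cebpa, Ctdnep1) were lower and 3 (Gpat2, Plpp1, Pck1) higher in Celf1 AKO (9.51% and 7.81% over all genes). DESeq2 called 2 of 40, Gk lower and Plpp1 higher, where it called 3.08% of all genes. Without Celf1 AKO replicate 3, edgeR called 1 of 40, Gk, and 3.19% of all genes.

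Glycerol 3-phosphate and acyl-CoA supply had 9 tested genes, of which 6 had negative and 3 positive log2 fold changes (median -0.09). Gk, the glycerol kinase that returns free glycerol to glycerol 3-phosphate, was at 36.2, 19.0 and 86.0 CPM in Celf1 AKO and at 158, 149.9 and 212 CPM in Flox control. All knockout libraries were below all controls, at 27.2% of the control mean. Its log2 fold change was -1.88 (SE 0.49; edgeR adjusted p = 0.259), with DESeq2 0.00417, and -2.65 (0.0255) without Celf1 AKO replicate 3. The adjusted p of Gk ran from 0.00417 to 0.792 over 19 alternatives. Its log2 fold change ran from -2.65 to -1.50, the latter without knockout replicate 2. Acsl1, the acyl-CoA synthetase most used in fat, was at 6005, 6019.5 and 8329 against 9179, 8329 and 9322 CPM (log2 fold change -0.40, SE 0.17; 0.393). Knockout replicate 3 met the lowest control there. Pck1, the key enzyme of glyceroneogenesis, was at 6676, 7671 and 6159 against 6149.8, 5596 and 5612 CPM, with the lowest knockout library only just above the highest control (0.24, SE 0.14; 0.516, and 0.15 without knockout replicate 2).

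The list of other acyltransferases and phosphatases had 12 tested genes, 7 with positive and 5 with negative log2 fold changes (median 0.06). Plpp1, a membrane phosphatase of lysophosphatidic and phosphatidic acid, was at 66.0, 67.1 and 78.5 CPM in Celf1 AKO and at 48.3, 37.7 and 30.1 CPM in Flox control, which did not overlap. Its log2 fold change was 0.87 (SE 0.18; edgeR adjusted p = 0.227) and it passed with DESeq2 (0.00368), within a range of 0.00368 to 0.782 over 19 alternatives. Agpat1, another AGPAT, was at 64.3 ± 5.32 against 74.7 ± 6.33 CPM (-0.22, SE 0.11; 0.463, and -0.12 without knockout replicate 1). Gpat2, a mitochondrial GPAT best known from testis, was at 0.18 to 0.29 against 0.086 to 0.16 CPM, too few counts to give a precise fold (0.88, SE 0.44; 0.447).

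Among the 7 genes of the phospholipid branch, 5 log2 fold changes were negative and 2 positive (median -0.16). Selenoi, an ethanolamine phosphotransferase, was at 24.01, 22.6 and 28.1 CPM in Celf1 AKO and at 29.7, 32.7 and 38.6 CPM in Flox control, without overlap (-0.43, SE 0.14; edgeR adjusted p = 0.307). Pcyt2, which makes CDP-ethanolamine, was at 56.7 ± 9.48 against 68.2 ± 5.17 CPM (-0.27, SE 0.14; 0.459, and -0.17 or -0.42 without knockout replicate 1 or 2), and Cept1, a choline and ethanolamine phosphotransferase, at 61.4 ± 3.33 against 72.1 ± 7.94 CPM (-0.23, SE 0.11; 0.441, and -0.15 without control replicate 3). Of the 3 droplet formation genes tested, 2 log2 fold changes were negative and 1 positive, from -0.03 to 0.05 with SE of 0.12 to 0.14. Their means were 290.0 ± 31.2 against 295.9 ± 23.99 CPM for Bscl2 (seipin), 508 ± 40.7 against 510.0 ± 8.10 CPM for Fitm2 and 27.4 ± 4.11 against 26.4 ± 1.86 CPM for Tmem159, and edgeR adjusted p-values from 0.909 to 0.989.

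The 9 regulators had 7 negative and 2 positive log2 fold changes (median -0.06). Srebf1, the sterol regulatory element binding factor of lipid synthesis, was at 141, 192 and 193 CPM in Celf1 AKO and at 156, 366 and 319.9 CPM in Flox control, where replicate 1 lay within the knockout range (-0.68, SE 0.30; edgeR adjusted p = 0.402). It was -0.44 when control replicate 2 was left out and -0.97 when control replicate 1 was. Ppargc1a, the coactivator PGC-1α, was at 186, 80.4 and 74.7 against 79.3, 52.4 and 57.4 CPM (0.85, SE 0.36; 0.380). Knockout replicate 1 was far above the rest, and without it the log2 fold change was 0.34. Ctdnep1, the phosphatase that dephosphorylates lipin 1, was at 44.8, 41.6 and 52.2 against 54.5, 54.8 and 54.6 CPM, without overlap (-0.24, SE 0.11; 0.418). Pparg, the main adipocyte transcription factor, was at 202 to 238 CPM in Celf1 AKO and 207 to 239 CPM in Flox control (-0.06, SE 0.12; 0.874). It is named here after its values were seen.

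**Figure D4:**
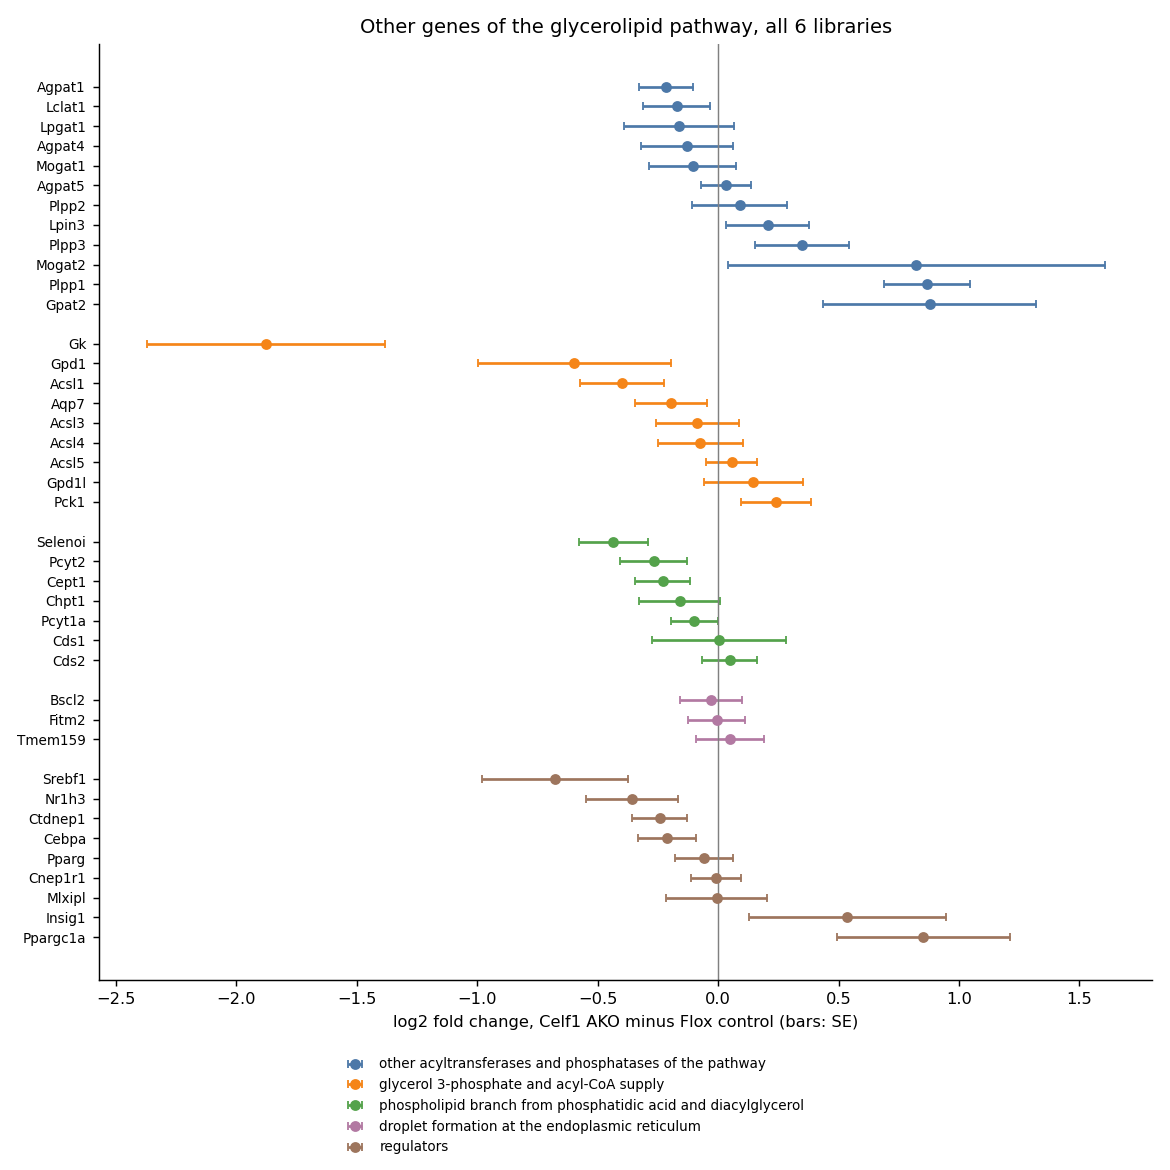
Log2 fold change (Celf1 AKO minus Flox control; bars are SE) of the 40 tested companion genes in 5 lists, from edgeR with all 6 libraries. Gk at -1.88 lies furthest below 0, and Gpat2, Plpp1 and Ppargc1a, at 0.85 to 0.88, lie furthest above it.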

How the data were processed

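RNA from inguinal white fat was sequenced in 6 libraries. Unnormalized counts (whole numbers) and FPKM, both by Ensembl gene with a column for each library, are as the authors deposited them, per the file headers. HISAT2, RSEM 1.3.1, GRCm38 and mm10 are named, without roles, per the submitters' processing notes. The annotation and strand setting were not stated there. In all 6233 genes with at least 1000 counts per library, count over FPKM was 1 length per gene times 1 factor per library (within 0.01 log2). Symbols (16522 of 16627 matched) and positions came from GENCODE M21 (GRCm38), promoters from the RefSeq table used here, in which 7 of the 10 genes matched.

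Counts were tested with edgeR 4.0.16 (R 4.3.3; TMM, default filter leaving 16366 genes, robust quasi-likelihood fit, no covariates; adjusted p under 0.05 called). A run of the fit on simulated counts had no library like Celf1 AKO replicate 3, so it does not bear on the number of enzymes called. SE is the fold change over the root of F. Alternatives used DESeq2 1.42.0, limma 3.58.1, other scalings and filters, and left out each library. Named companions were up to 3 per list of smallest p. Members and lists were chosen with earlier results of these data known. No libraries agreed within sampling noise. Counts of a gene limit precision for counting error only; 3 against 3 allows an exact permutation p of 0.1 at least.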

Additional observations from a re-analysis of the deposited data

How the results depend on the processing

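Over 19 alternatives the enzyme count moved from 0 to 1 (Agpat2) with DESeq2 and without Celf1 AKO replicate 3 (0 to 1 over the fits that left out a library), and that of companions to 2 with DESeq2 and 0 to 1 over fits without a library. All genes called, 2 with all libraries, were 494 with DESeq2, 10 with limma-voom and quality weights, 12 with the replicate number as a block, 1 with limma on log2(FPKM + 1) without a filter, 0 with library size only, limma-voom and both filtered FPKM fits, and 0 to 527 without a library, the 527 without Celf1 AKO replicate 3. Deviations of log2 CPM from the group mean, over all genes, correlated at 0.07, -0.01 and 0.27 between libraries of the same replicate number. The highest correlation was 0.30, between knockout replicate 2 and control replicate 1. With 3 libraries per group these deviations are tied to each other, so they cannot decide whether the numbers pair the libraries. With the block the SE of Gpam was 0.20, against 0.51 without it (log2 fold change -0.94; edgeR adjusted p = 0.168). The block called none of the 10 enzymes. It called Celf1 (adjusted p = 0.0476), as did 3 other alternatives.

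Some signs turned. With limma-voom and quality weights Gpat4 was at 0.0081 and Bscl2 at 0.021. Fitm2 was at 0.017 with RLE factors and with DESeq2, 0.0098 with upper-quartile factors and 0.0063 with a minimum mean CPM of 1. Over fits without a library the log2 fold change ran from -0.23 to 0.042 for Gpat4, -0.12 to 0.076 for Dgat1, -0.068 to 0.50 for Dgat2, -0.69 to 0.086 for Pnpla3, -0.12 to 0.060 for Bscl2, -0.044 to 0.096 for Fitm2 and -0.023 to 0.16 for Tmem159. The cause was not tested. Agpat2, Agpat3, Gpam, Gpat3, Lpin1 and Lpin2 kept their sign in all 19. By CPM, not per length, the mean share of Agpat2 in its step was 73.1% in Celf1 AKO and 79.4% in Flox control.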

Other observations

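In the RefSeq promoter windows of the other enzymes, all searched on both strands in the 250 bases before the start, Pnpla3 held the cAMP response element TGACGTCA once, which 1.55% of 32851 promoters did, with 1 CCAAT and 2 GGGCGG. Gpat3 held GGGCGG 3 times, and Agpat3 held none of the 6 motifs. Of the 2 Gpam starts, 1 had a CCAAT and the other a GGGCGG. Of the 3 Lpin2 starts, 1 had the E-box CACGTG and a GGGCGG, the next a GGGCGG, and the last 3 CCAAT. The shorter run TGTTTGT, on the sense strand of the 3′ untranslated region, stood 4 times in Gpat3 and once each in Gpam, Agpat3 and Gpat4. Matches that share bases were each counted, so the 4 in Gpat3 include those inside the longer element shown above. It was not found in the regions of the other 6 enzymes, and 28.8% of all 13964 regions held it. Of regions close in length, 57.0% held it for Gpam, 67.7% for Agpat3 and 57.0% for Gpat4, each with a median of 1 match. For Gpat3 26.0% did, with a median of 0. These matches are descriptions of sequence. No relation with the knockout was tested.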
